A study of Mus musculus with 48 samples.

Results

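The mRNA levels of 50 genes of the cell cycle and of DNA replication were followed through liver spheroids before and after engraftment in the eye. The genes were listed by name, for their roles in division and with earlier results of these data known. All 50 were found among the 46517 genes of the count table. Expression was measured by bulk Smart-seq3 RNA-seq, in which full-length cDNA is sequenced and molecules carry an identifier, in 16 mouse samples of 5 groups with 3 technical libraries each. The groups were 5 explants, 3 irises, 3 livers, 3 preparations of isolated primary hepatocytes and 2 samples of in vitro spheroids. Every sample was labelled with the genotype WT Albino and the strain C57BL/6N; the study used adult mice of both sexes, and the labels gave neither age nor sex per sample. Explants were hepatocyte spheroids that had been injected into the anterior eye chamber (ACE) and were collected 2 months post-tx. They were dissected together with the surrounding iris, and several spheroids were placed in each eye, so an explant pools spheroids and holds host tissue. Irises came from eyes without grafts, livers and hepatocytes came from donor mice, and hepatocytes were obtained by perfusion and a Percoll step that enriches but does not purify them. Spheroids were formed from such hepatocytes in culture.

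A resting adult hepatocyte sits outside the cell cycle, in G0, and can re-enter it after loss of liver tissue. D-type cyclins with CDK4 and CDK6 drive G1, E2F factors then switch on the replication genes, the MCM helicase is loaded at origins and fired, and after S phase cyclin B with CDK1 starts mitosis. Transcripts of the mitotic genes are low outside G2 and M and are widely used as a sign of dividing cells, while several S-phase genes, such as those of the MCM helicase and Pcna, are also transcribed in cells that do not divide.

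The promoters of the members on which the comparisons turn are given here, since the same short sequence elements recur in genes that move together through the cycle. RefSeq promoter windows of the mouse build GRCm38.p6, 250 bases before the start site and 50 after it, were matched for 39 of the 50 genes. Capitals mark matches to the elements searched on both strands: E2F sites (TTTCGCGC, TTTGGCGC, TTTCCCGC or TTCCCGCC), the cell cycle genes homology region or CHR (TTTGAA or TTCGAA), which recruits the DREAM and MuvB complexes, and the CCAAT box bound by NF-Y. Each run is written from 5′ to 3′ along its gene and holds the bases before the start site up to the first annotated exon. The cyclin B genes Ccnb1 (chr13:100786571-100786736, minus strand) and Ccnb2 (chr9:70421555-70421804, minus strand) and the topoisomerase gene Top2a (chr11:99024190-99024439, minus strand) showed the largest rises in explants over irises. Mcm10 (chr2:5012792-5013041, minus strand), a replication initiation factor, and the CDK inhibitor gene Cdkn1a (chr17:29090729-29090975, plus strand) had levels that set liver or spheroids apart.
Ccnb1: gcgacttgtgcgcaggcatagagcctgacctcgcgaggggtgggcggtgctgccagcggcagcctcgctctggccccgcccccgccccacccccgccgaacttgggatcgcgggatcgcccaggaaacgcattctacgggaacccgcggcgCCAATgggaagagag
Ccnb2: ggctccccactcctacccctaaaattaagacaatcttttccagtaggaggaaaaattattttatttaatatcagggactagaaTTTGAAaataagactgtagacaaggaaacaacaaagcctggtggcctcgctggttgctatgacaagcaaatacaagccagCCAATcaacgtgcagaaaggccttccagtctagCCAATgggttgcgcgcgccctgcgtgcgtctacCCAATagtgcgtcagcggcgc
Top2a: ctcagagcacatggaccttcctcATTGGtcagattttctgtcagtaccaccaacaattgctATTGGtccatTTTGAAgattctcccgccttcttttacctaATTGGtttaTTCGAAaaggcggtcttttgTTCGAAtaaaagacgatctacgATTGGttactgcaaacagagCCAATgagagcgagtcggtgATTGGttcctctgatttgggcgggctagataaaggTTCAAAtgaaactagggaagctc
Mcm10: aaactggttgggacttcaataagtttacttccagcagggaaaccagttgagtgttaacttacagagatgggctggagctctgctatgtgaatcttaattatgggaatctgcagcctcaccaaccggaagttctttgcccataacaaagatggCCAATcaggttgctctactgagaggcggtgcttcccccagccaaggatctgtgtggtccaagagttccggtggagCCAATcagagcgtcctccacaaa
Cdkn1a: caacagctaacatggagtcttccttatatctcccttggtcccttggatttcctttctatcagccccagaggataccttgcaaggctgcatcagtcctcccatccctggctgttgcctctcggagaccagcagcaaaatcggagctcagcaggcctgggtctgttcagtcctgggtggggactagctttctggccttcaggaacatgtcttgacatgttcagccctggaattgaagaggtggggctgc
Top2a held 4 CHR matches and 6 CCAAT boxes, Ccnb2 held 1 CHR match and 3 CCAAT boxes, and Mcm10 held 2 CCAAT boxes and neither other element. Over the whole windows, a CHR match was found in 16 of 20 genes of G2 and M (80.0%), in 3 of 19 genes of G1, S and replication (15.8%) and in 21.7% of all 27025 genes with a window. E2F matches had the opposite distribution, with 9 of 19 genes of G1, S and replication (47.4%), 1 of 20 genes of G2 and M (5.0%) and 4.0% of all genes. CCAAT boxes were found in 30 of the 39 promoters (76.9%) and in 41.1% of all genes. A match is a match of letters only, and the CHR letters are short. With the bases before the start site alone, CHR matches were found in 10 of 20 genes of G2 and M and in 19.6% of all genes.

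The samples held 2718518 to 6789648 counts each. Hepatocyte markers (8 genes, among them Alb and Hnf4a) summed to 10100 to 11000 TPM (a level scaled for gene length and library depth) in livers, 10500 to 12800 in hepatocytes and 10300 to 11400 in spheroids, as their labels say. Explants, labelled as hepatocytes, reached 4450 to 6000 TPM and also held 3620 to 4510 TPM of 8 iris and lens markers, which were at 5140 to 5590 in irises and at most 236 in any liver, hepatocyte or spheroid sample. Irises without grafts still held 1360 to 1620 TPM of the hepatocyte markers. Macrophage markers (8 genes) were at 1060 to 2840 TPM in explants and 743 to 797 in irises. Liver 1 stood apart from livers 2 and 3, with macrophage markers at 1120 TPM against 507 and 619, and fibroblast and stellate cell markers at 1010 TPM against 395 and 458.

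The summed level of the set was highest in explants and lowest in livers and hepatocytes (heat map of all members). Summed over the 50 genes, explants held 996 ± 130 TPM (SD, n = 5), irises 801 ± 31.5 (SD, n = 3), livers 430 ± 159 (SD, n = 3), hepatocytes 412 ± 63.7 (SD, n = 3) and spheroids 814 ± 91.1 (SD, n = 2). Cdkn1a alone gave 438 TPM of the spheroid mean. Without Ccnd1, Ccnd2, Cdkn1a and Mcm10 the order of spheroids and irises turned, with 358 ± 26.5 TPM in spheroids (SD, n = 2) and 572 ± 17.4 in irises (SD, n = 3). Split by phase, the 24 genes of G1, S and replication summed to 758 to 849 TPM in explants and 698 to 754 in irises. The 26 genes of G2 and M summed to 109 to 351 TPM in explants, and to no more than 83.0 TPM in any other sample. In bulk samples, fewer cells of a type and less RNA per cell cannot be told apart, so a low sum does not say how many cells divided.

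**Figure D1:**
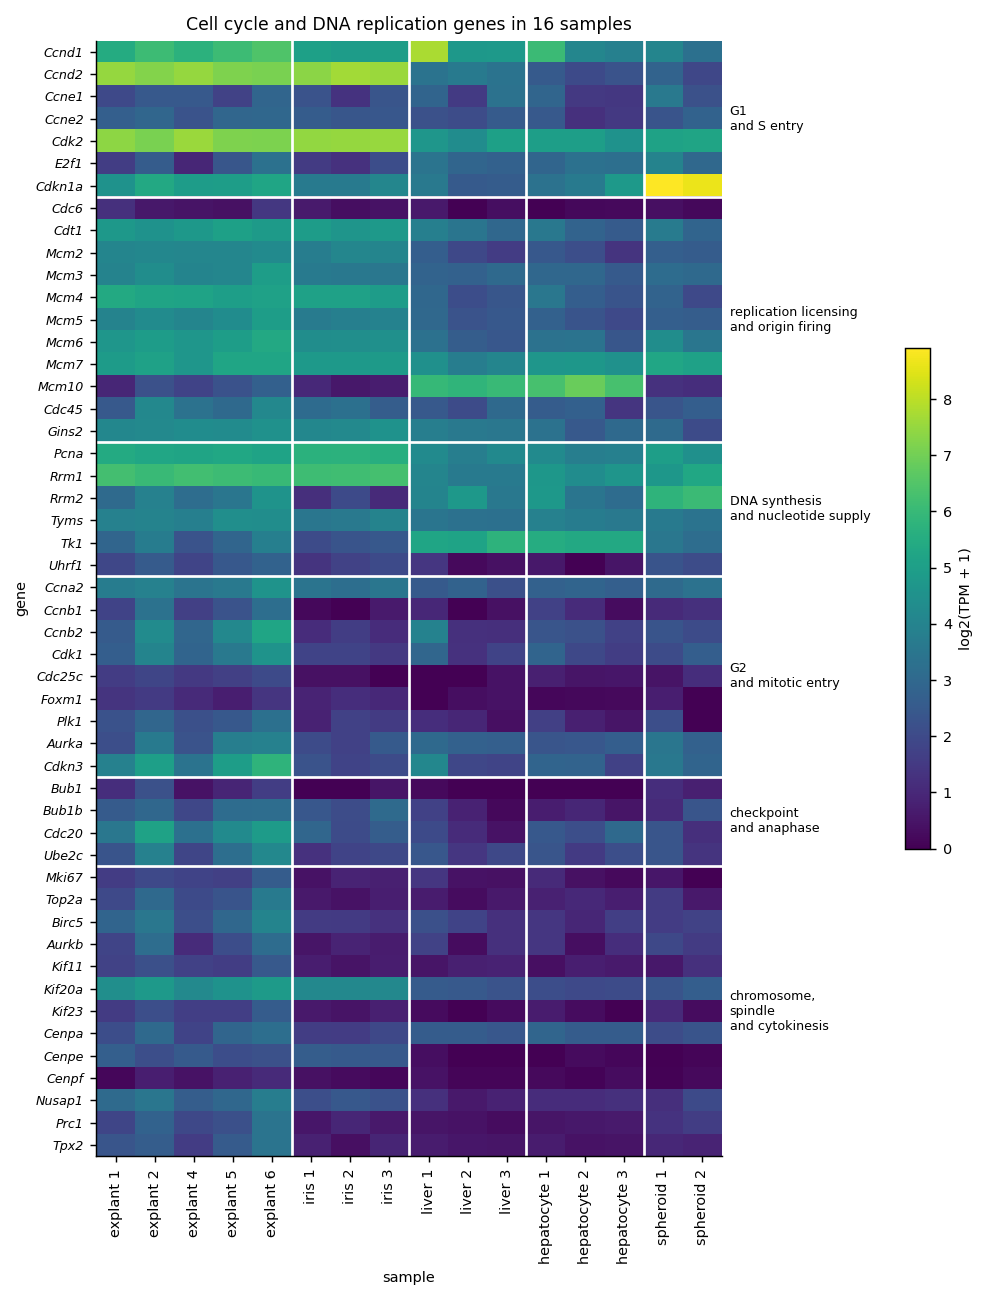
Heat map of log2(TPM + 1) for the 50 genes (grouped by role) in the 16 samples (grouped by tissue). Mcm10 and Tk1 stand out in livers and hepatocytes, Cdkn1a and Rrm2 in spheroids, Ccnd2 and Cdk2 in explants and irises, and the mitotic genes are brightest in explants 2 and 6.

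The summed level of the genes of G2 and M was higher in each explant than in every other sample. Summed over the 26 genes, the levels were 131, 266, 109, 197 and 351 TPM in the explants numbered 1, 2, 4, 5 and 6. Irises held 68.3, 64.4 and 75.1 TPM, livers 83.0, 37.3 and 34.3, hepatocytes 59.7, 45.4 and 45.4, and spheroids 71.4 and 61.8. All 5 explants were therefore above all 11 other samples, and the explants themselves differed by more than the other groups did. Explant 6 was the highest explant for 20 of the 26 genes and explant 4 the lowest for 15. Macrophage markers followed the same order at the top: 2840 TPM in explant 6 and 2350 in explant 2, against 1310, 1060 and 1580 in explants 1, 4 and 5. Lymphocyte markers (8 genes) were at 254 and 193 TPM in explants 6 and 2 and at 32.5 to 59.1 in the others, and hepatocyte markers were also highest there, at 6000 and 5580 TPM. The iris share of RNA implied by the deposited iris-corrected values was 0.59 for explant 6, 0.68 for explant 2, 0.72 for explant 5 and 0.82 for number 1. The part of each of these in the mitotic sum was not tested.

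**Figure D2:**
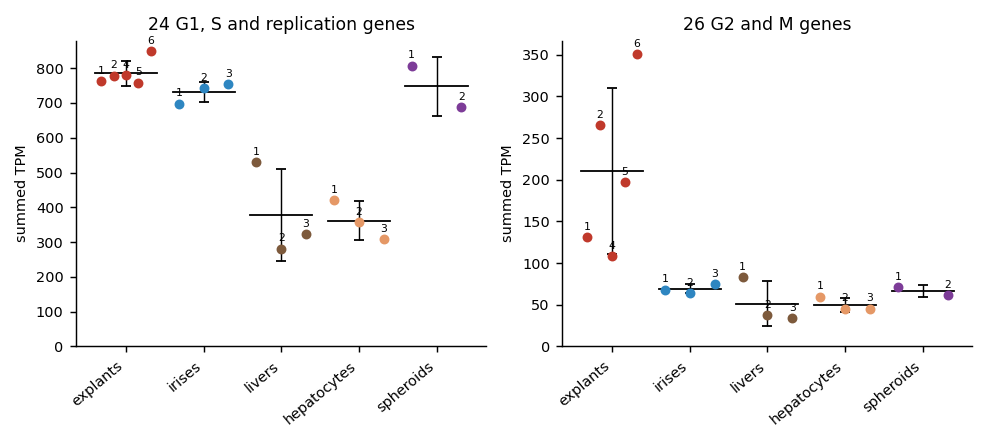
Summed TPM of the 24 genes of G1, S and replication (left) and the 26 genes of G2 and M (right) in each sample, with sample numbers; lines and bars are the mean and SD of a group. The 5 explants sit between 109 and 351 TPM in the right panel and above all other samples, while in the left panel explants, irises and spheroids lie close together.

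The comparison of explants with irises asks what the graft adds to the host tissue it was collected with. Genes of G2, mitosis and cytokinesis rose in explants, while most genes of DNA replication did not pass the test. Of the 50 members, 48 passed the filter on low counts, and 19 of them were higher at an adjusted p under 0.05 with a log2 fold change over 1 (39.6%, against 6.16% of all 16764 genes tested). None was lower by edgeR, DESeq2 or limma-voom (0.316% of all genes by edgeR), and 1, Pcna, was lower at an unadjusted p under 0.05. The median log2 fold change was 1.22 over the members tested and 0.01 over all genes. By role, 5 of 8 genes of G2 and mitotic entry, 1 of 4 of the checkpoint and anaphase, 9 of 13 of chromosomes, spindle and cytokinesis, 2 of 7 of G1 and S entry, 1 of 10 of replication licensing and firing and 1 of 6 of DNA synthesis were called. The low counts for Cdc6 and Cdc25c left them untested, with 45 and 46 counts over the explants and 10 and 2 over the irises. A gene could pass the filter on its counts in explants alone. With at least 10 counts in every sample, 4 of 26 members were higher, beside 613 of all 14453 genes.

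Ccnb1 and Ccnb2, the cyclin B genes that activate CDK1, had the largest changes. Ccnb1 was at 2.45, 9.22, 2.20, 3.86 and 8.28 TPM in the explants and at 0.142, 0 and 0.575 TPM in the irises, a log2 fold change of 4.47 ± 0.91 (SE, edgeR quasi-likelihood adjusted p = 0.0133). Ccnb2 was at 4.95, 18.6, 6.65, 16.95 and 36.9 TPM in the explants and 1.17, 2.08 and 1.18 TPM in the irises (log2 fold change 3.63 ± 0.83, edgeR adjusted p = 0.0223). For both genes the lowest explant was above the highest iris, and explants 2 and 6 were the highest. Ccnb1 rested on 225 counts over the explants and 5 over the irises. Cdkn3, a phosphatase gene that peaks late in the cycle, was at 14.1, 31.8, 9.47, 29.9 and 53.8 TPM in explants and 2.49 to 3.88 in irises (log2 fold change 3.23 ± 0.70, edgeR adjusted p = 0.0171). Cdk1 itself changed by 2.59 ± 0.58 on the log2 scale (edgeR adjusted p = 0.0199), and the mitotic kinase gene Plk1 by 1.79 ± 0.49 (edgeR adjusted p = 0.0439).

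Of the 13 genes that build and separate mitotic chromosomes, 9 rose. Top2a, which untangles sister chromatids, was at 2.90, 7.27, 2.98, 3.99 and 11.7 TPM in explants and 0.533, 0.356 and 0.673 TPM in irises (log2 fold change 3.59 ± 0.67, edgeR adjusted p = 0.00898). Mki67, which coats mitotic chromosomes and encodes the Ki-67 antigen, was at 2.00, 2.95, 2.47, 2.25 and 4.98 TPM in explants and 0.357, 0.828 and 0.723 TPM in irises (log2 fold change 2.32 ± 0.45, edgeR adjusted p = 0.0105). No iris reached the lowest explant for either gene. Prc1, which bundles microtubules of the central spindle, was at 2.65 to 9.77 TPM in explants, with a median of 3.54, and at 0.438 to 0.936 in irises (log2 fold change 3.10 ± 0.61, edgeR adjusted p = 0.0117). Tpx2, Aurkb, Kif23, Kif11 and Birc5, all of the spindle or of cytokinesis, had log2 fold changes of 3.09, 2.96, 2.52, 2.52 and 2.39. Cdc20, an activator of the anaphase-promoting complex, changed by 2.12 ± 0.55 (edgeR adjusted p = 0.0373) and the spindle gene Nusap1 by 1.26 ± 0.35 (edgeR adjusted p = 0.0469).

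Some mitotic genes did not pass. Bub1, a spindle checkpoint kinase gene, had a log2 fold change of 3.51 ± 1.11 (edgeR adjusted p = 0.0705) on 72 counts over explants and 3 over irises, a ratio of 12.2 with a counting interval of 4.01 to 60.5. Ube2c and Aurka had log2 fold changes of 2.19 ± 0.70 and 1.57 ± 0.58 (edgeR adjusted p = 0.0723 and 0.114). Ube2c shares 22.8% of its exon bases with Tnnc2 on the opposite strand, which was at 11.3 TPM in irises and 2.95 in explants. The part of Tnnc2 reads in the Ube2c counts was not tested. Cenpe, a kinetochore motor gene, was at 3.28 to 5.43 TPM in explants and 4.64 to 5.22 TPM in irises. Kif20a shares 33.2% of its exon bases with Cdc23 on the opposite strand, and since counting ignored strand its 16.8 to 16.9 TPM in irises cannot be assigned to either gene.

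**Figure D3:**
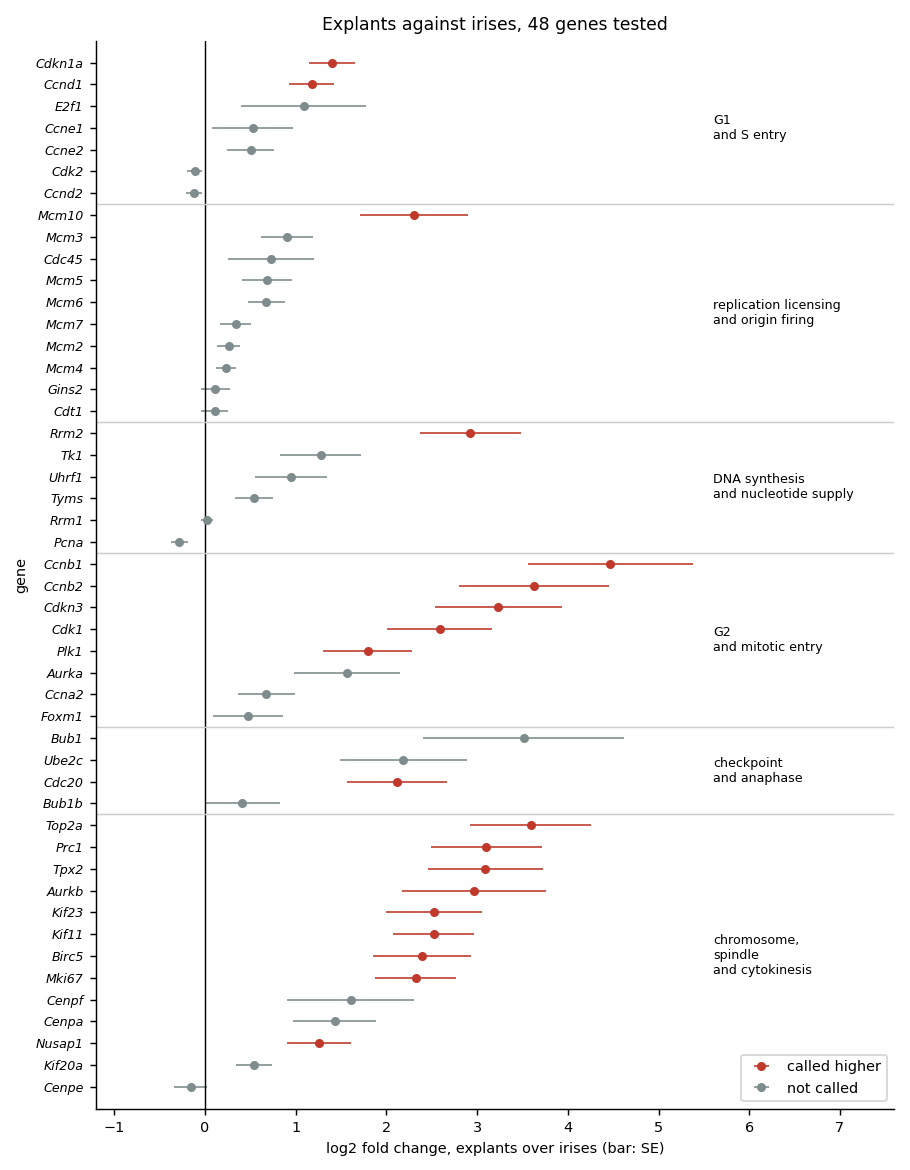
Log2 fold change of explants over irises for the 48 genes tested, grouped by role; bars are standard errors and red marks the 19 genes called higher. Calls crowd in the lower 3 groups, of G2 and mitosis, where the largest value is 4.47 for Ccnb1, while Pcna, Rrm1, Cdk2 and Ccnd2 lie near 0.

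Among the genes of G1 and replication, Ccnd1, Cdkn1a, Mcm10 and Rrm2 were called. Ccnd1, the D-type cyclin gene that answers growth signals, was at 44, 68.7, 51.4, 67.3 and 86.6 TPM in explants and 32.2, 29.1 and 30.4 TPM in irises (log2 fold change 1.17 ± 0.25, edgeR adjusted p = 0.0149). Cdkn1a, which encodes the CDK inhibitor p21, was at 22, 41, 29.4, 30.1 and 36.6 TPM in explants and 11.3, 11.8 and 15.8 TPM in irises (log2 fold change 1.401 ± 0.255, edgeR adjusted p = 0.00812). All explants lay above all irises for both, so a driver and an inhibitor of G1 exit were higher in the same samples. Ccnd1 shares 21.3% of its exon bases with LTO1 on the other strand. Rrm2, the regulated subunit of ribonucleotide reductase, was at 7.46 to 22.6 TPM in explants and 1.094 to 3.01 in irises (log2 fold change 2.93 ± 0.55, edgeR adjusted p = 0.00968). Mcm10 was at 0.920, 3.59, 2.47, 3.73 and 5.59 TPM in explants and 1.01, 0.501 and 0.631 TPM in irises (log2 fold change 2.30 ± 0.59, edgeR adjusted p = 0.0344), and explant 1 lay inside the range of the irises.

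The helicase and the replication clamp did not pass. Pcna, the sliding clamp gene, was at 42.9, 37.9, 35.4, 38.4 and 35.3 TPM in explants and 50.01, 51.3 and 46.8 TPM in irises, with all explants below all irises (log2 fold change -0.28 ± 0.09, edgeR adjusted p = 0.0863). The genes Mcm2 to Mcm7 had log2 fold changes of 0.23 to 0.91, none with an adjusted p under 0.05. Of these, Mcm3, Mcm5 and Mcm6 were higher in all 5 explants than in all irises in TPM, as were 10.9% of all 16764 genes tested. Ccnd2 and Cdk2 were the most abundant members in both tissues, at 139 to 181 and 139 to 187 TPM in explants and 161 to 202 and 176 to 185 TPM in irises.

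Leaving out 1 iris changed the count most. The 19 calls became 2 without iris 1, 6 without iris 2 and 6 without iris 3, while leaving out 1 explant gave 14 to 24, and limma-voom called 4. Without an iris 50 members were tested, and over all genes 554 of 17244, 604 of 17273 and 575 of 17208 were higher. Without iris 1 the share of members was thus near that of all genes. By limma-voom 541 of all 16764 genes were higher. Top2a lost its call without iris 1 and without iris 2, and Mki67 lost its own without iris 1, with log2 fold changes still at 3.57, 3.37 and 2.00.

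Other genes of the cycle, from lists of genes that are not members, were counted in the same way. Of 64 other mitosis genes, 53 were tested and 10 were higher in explants than in irises, among them Nek2, Ckap2 and Dlgap5 with log2 fold changes of 3.91, 3.50 and 3.46, and Kif20b, Ccnf and Sgo1 with 1.33, 1.90 and 2.14. The counts for Nek2 and Dlgap5 in irises were 7 and 4, and their count ratios were 15.2 (interval 7.26 to 38.3) and 11.5 (interval 4.36 to 43.3). DESeq2 called 21 and limma-voom 2 of the list. Of 43 other replication genes none was called by edgeR, DESeq2 or limma-voom, with 3 higher and 3 lower at an unadjusted p under 0.05. The list medians were 0.78 and 0.15 on the log2 scale, against 0.01 over all genes. Of 8 CDK inhibitors and pocket proteins tested only Cdkn2b, which encodes p15, was called (log2 fold change 2.20). Of 16 other G1 cyclins, kinases and E2F factors tested Myc and Cdk6 were called (1.31 and 1.04), and of 16 p53 targets tested Plk3 (1.46). Over all 16764 genes tested 6.16% were higher and 0.316% lower, and the calls of these lists are to be read against these shares.

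Against livers, members moved in both directions. Of 48 members tested, 23 were higher in explants (47.9%, against 28.9% of all 16506 genes) and 5 were lower (10.4%, against 19.7%). Scaling by library size alone gave 30 higher and 2 lower, beside 7094 and 1715 of all 16506 genes. It moved the median of all genes from 0.17 to 0.80 on the log2 scale, and the members' median from 1.14 to 1.74. With at least 10 counts in every sample, which left 24 members, it was 11 higher and 2 lower, beside 2282 and 2080 of all 11393 genes. By role, 3 of 7 genes of G1 and S entry were higher and 2 lower, 4 of 10 of replication licensing and firing were higher and 1 lower, and 2 of 6 of DNA synthesis were higher and 2 lower. In the 3 groups of G2 and mitosis 3 of 8, 3 of 4 and 8 of 13 genes were higher and none lower by edgeR, nor at an unadjusted p under 0.05. Iris and lens markers rose in 8 of 8 genes in this comparison, so a gene as high in iris as in explants cannot be told apart from iris RNA. Cenpe, Ccnd2, Cdk2, Mcm4 and Rrm1 were of this kind. Mcm2, Uhrf1, Foxm1, Bub1 and Bub1b, also higher than in livers, overlapped between explants and irises in TPM and were not called there. The part of iris RNA in their rise over livers was not tested. Cenpe, Foxm1, Bub1 and Bub1b are among the genes of G2 and mitosis counted above. Cenpe, at 3.28 to 5.43 TPM in explants and 4.64 to 5.22 in irises, had 3 counts over the livers, and its ratio was 28.8 (counting interval 9.78 to 140). Ccnd2 was at 9.40, 11.8 and 9.46 TPM in livers, a log2 fold change of 3.12 ± 0.15 (edgeR adjusted p = 2e-07). Bub1 and Kif23, with 1 and 2 counts over the livers, had ratios of 17.3 (interval 3.01 to 692) and 12.4 (interval 3.34 to 104), and Prc1 changed by 3.08 ± 0.66 (edgeR adjusted p = 0.00197).

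A smaller set stood above iris and liver alike. All 5 explants lay above all 11 other samples in TPM for 14 of the 50 members: Mcm3, Mcm5, Mcm6, Cdc25c, Plk1, Cdc20, Mki67, Top2a, Kif11, Kif20a, Kif23, Nusap1, Prc1 and Tpx2. Among the 48 members tested against irises it was 13 (27.1%), beside 1.53% of all genes tested. Of these 14, the replication genes Mcm3, Mcm5 and Mcm6 encode helicase subunits and the rest act in mitosis, except that Kif20a cannot be separated from Cdc23. Top2a was at 0.618, 0.234 and 0.512 TPM in livers (log2 fold change 2.87 ± 0.69, edgeR adjusted p = 0.00398). Mki67 was at 1.66, 0.349 and 0.327 TPM in livers, all below the lowest explant, and was not called (log2 fold change 1.14 ± 0.56, edgeR adjusted p = 0.0953). Without liver 1 it was called, with a log2 fold change of 2.25.

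Liver 1 carried more of the division genes than the other livers. It was the highest liver for 36 of the 50 members and for 21 of the 26 genes of G2 and M. Ccnd1 was at 218 TPM in liver 1 and at 26.1 and 27.5 in livers 2 and 3, Ccnb2 at 14.5 against 1.37 and 1.28, and Cdkn3 at 16.2 against 2.73 and 2.56. Macrophage, fibroblast and lymphocyte markers were also highest in liver 1, as given above for the first lists and at 274 against 95.5 and 58.6 TPM for lymphocytes, and their part in these levels was not tested. Ccnd1 was not called between explants and livers (log2 fold change -1.26 ± 0.60, edgeR adjusted p = 0.0846); its log2 fold change was 0.39 and not called without liver 1, and -1.69 and called without liver 2 or without liver 3. Hepatocyte sample 1 held 65.7 TPM of Ccnd1 against 16.2 and 13.6 in the other hepatocyte samples. Without liver 1, 25 of 50 members tested were higher and 3 lower in explants, beside 5075 and 3395 of all 17141 genes. The 5 lower calls also became 3 without explant 1 or without explant 2, and 2 without explant 5.

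The 5 members that were lower in explants than in livers were Mcm10, Tk1, E2f1, Rrm2 and Ccne1. Hepatocyte markers were lower too, in 8 of 8 genes with a median log2 fold change of -1.93. The part of iris RNA, which dilutes graft RNA in explants, in the falls of the members was not tested. Mcm10 was at 61.6, 55.8 and 64.1 TPM in livers, above every other member of replication in each of them, a log2 fold change of -5.00 ± 0.38 (edgeR adjusted p = 2.44e-06). Tk1, the thymidine kinase gene of the salvage pathway, was at 37, 34.8 and 52.5 TPM in livers and 3.85 to 13.4 in explants (log2 fold change -3.09 ± 0.38, edgeR adjusted p = 5.14e-05). Neither gene overlapped between the groups. Tk1 shares 83 exon bases with Afmid on the opposite strand, and Afmid was at 231 TPM in livers, 229 in hepatocytes, 43.7 in spheroids, 28.8 in explants and 14.1 in irises, while Mcm10 shares no exon base with another gene. Erythroid precursor markers (6 genes) were also higher in livers, at 578 to 724 TPM, than in explants, at 117 to 195. The part of Afmid reads and of erythroid cells in these levels was not tested. E2f1 changed by -1.55 ± 0.59 (edgeR adjusted p = 0.0382), Rrm2 by -1.27 ± 0.44 (edgeR adjusted p = 0.0245) and Ccne1, cyclin E1, by -1.27 ± 0.50 (edgeR adjusted p = 0.0423). The calls of E2f1, Rrm2 and Ccne1 were lost with library size alone, and in TPM all of E2f1, Rrm2 and Ccne1 overlapped between the groups. Pcna was at 18, 12.9 and 17.9 TPM in livers and Cdkn1a at 11.3, 4.75 and 5.04.

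Of the non-member lists against livers, 26 of 53 mitosis genes tested were higher and 4 lower, and 11 of 43 replication genes were higher and 4 lower, to be read against the 28.9% higher and 19.7% lower over all genes, above which the replication genes did not lie in either direction. Spag5, Orc1, Cdc7, Pole2, Cdkn1c, Cdkn1b, Cdkn2d, Rbl1, Ccnd3, Phlda3, Zmat3 and Gadd45b, all higher here, had log2 fold changes of -0.52 to 0.39 between explants and irises and were not called there, so their rise over livers cannot be told apart from iris RNA. Spag5 rose by 5.21, while Pbk and Sgo1, with 4 and 1 counts over the livers, had ratios of 14.8 (interval 5.72 to 54.9) and 17.1 (interval 2.96 to 683). Ccnf, Spc24 and Cks2 fell by 2.83, 2.78 and 1.89 on the log2 scale. Orc1 had 65 counts over the explants and none over the livers, so it was at least 5.2-fold higher against a floor of 3 counts over the group; Cdc7 and Pole2 rose by 2.58 and 2.55, and Gmnn and Dbf4 fell by 2.06 and 1.52. Among inhibitors and pocket proteins 5 of 8 were higher, led by Cdkn1c, Cdkn2b and Cdkn1b (2.79, 1.57 and 1.32) with Cdkn2d and Rbl1 at 1.22 and 1.30. Of G1 genes Ccnd3 was higher (1.11) and E2f8, Cdk6 and E2f3 lower (-3.47, -1.57 and -1.12). Of p53 targets Phlda3, Zmat3 and Gadd45b were higher (1.88, 1.39 and 1.30) and Plk3, Bbc3, Trp53inp1 and Fas lower, the first of these 3 by -3.66, -2.64 and -1.49.

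The deposited table of iris-corrected explants subtracts an estimated iris share and rescales the rest. It listed 49 of the 50 members, all but Cenpf. In explants 1, 2, 5 and 6 the values equalled the explant less the share times the mean iris, divided by what remains, whereas explant 4 left a median relative error of 0.239 from that form and is not used here. On this scale Top2a was at 13.7, 21.6, 12.9 and 27.8 and Mki67 at 8.21, 7.85, 6.41 and 11.2 in the 4 explants, above all livers. Pcna was at 13.2, 13.7, 10.1 and 14.96, within or below the livers' 12.9 to 18 TPM. Ccnd1 was at 105 to 167 and Mcm10 at 1.85 to 12.6. Rrm2, lower in explants than in livers before correction, was at 33.3, 40.6, 32.4 and 52.5, above all livers (10.9 to 26.2 TPM). Tk1 was at 13.4 to 30.3 and, like Mcm10, stayed below all livers, while E2f1 and Ccne1 overlapped with them. These values rest on an estimated share and on the same irises, and no test was made on them.

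Between isolated hepatocytes and livers, few members passed the test. The comparison tests 29 of the 50 members, since most mitotic genes were too low in both groups, and none was higher (0.409% of all 12236 genes) and 1 was lower (3.45%, against 2.31%). At an unadjusted p under 0.05 it was 5 higher, and DESeq2 and limma-voom called none higher. The median log2 fold change was 0.09, and 0.01 over all genes. Ccnd2, a D-type cyclin gene, was the one that fell, from 9.40, 11.8 and 9.46 TPM in livers to 4.76, 3.04 and 3.82 TPM in hepatocytes (log2 fold change -1.26 ± 0.22, edgeR adjusted p = 0.0354), a call that was lost without hepatocyte sample 2 or 3, without liver 2 or 3, and by limma-voom. Mcm10 was at 78, 116 and 78.6 TPM in hepatocytes, all above the livers (log2 fold change 0.72 ± 0.17, edgeR adjusted p = 0.0559), and Tk1 at 44.4, 41 and 40.8 (log2 fold change 0.16 ± 0.17, edgeR adjusted p = 0.596). Markers of fibroblasts and stellate cells were at 112 to 160 TPM in hepatocytes, below every liver. Cdkn1a was at 9.13, 11.8 and 27.1 TPM in hepatocytes, a log2 fold change of 1.34 ± 0.52 (edgeR adjusted p = 0.156), and overlapped with livers. Without the samples numbered 1 of both groups it was called, with a log2 fold change of 2.10. Ccnd1 (log2 fold change -1.34 ± 0.88, edgeR adjusted p = 0.375), Pcna at 18.1, 12.9 and 13.9 TPM, and Mki67 at 1.11, 0.316 and 0.178 also overlapped with the livers. Top2a, at 0.777, 1.06 and 0.698 TPM, was above all livers, and like Mki67 it had too few counts for the test. Outside the members, only the p53 targets Btg2 and Gadd45a were called (2.63 and 2.17); the other 4 lists had no call by edgeR or limma-voom and 1 by DESeq2, among the G1 genes. At an unadjusted p under 0.05, 6 of the other replication genes, 4 of the other mitosis genes and 1 of the other G1 genes were higher, and 2 of the G1 genes were lower.

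In vitro spheroids differed from the hepatocytes they were made from in few members, but by wide margins. Of 32 members tested, 4 were higher (12.5%, against 8.13% of all 12247 genes) and 2 were lower (6.25%, against 9.11%), with a median of 0.06 beside 0.01 over all genes. Cdkn1a was at 479 and 398 TPM in spheroids, where no other sample exceeded 41 TPM, a log2 fold change of 4.45 ± 0.41 over hepatocytes (edgeR adjusted p = 0.000525). Rrm2 was at 54.3 and 65.9 TPM in spheroids and 26, 10.04 and 7.79 in hepatocytes (log2 fold change 1.71 ± 0.44, edgeR adjusted p = 0.0255). Uhrf1, which guides maintenance DNA methylation behind the fork, had 39 counts over the spheroids and 5 over the hepatocytes, a ratio of 9.20 (counting interval 3.62 to 29.9, edgeR adjusted p = 0.0162). Prc1 changed by 1.54 ± 0.47 (edgeR adjusted p = 0.0478). The calls of Rrm2, Uhrf1 and Prc1 were lost without either spheroid sample, which left 1 member higher, Cdkn1a, and 2 were higher without hepatocyte sample 2 or without hepatocyte sample 3.

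Mcm10 and Tk1 moved the other way. Mcm10 was at 1.38 and 1.26 TPM in spheroids against 78 to 116 in hepatocytes, a log2 fold change of -6.42 ± 0.31 (edgeR adjusted p = 4.74e-05). Tk1 was at 10.7 and 8.05 TPM in spheroids against 40.8 to 44.4 (log2 fold change -2.50 ± 0.17, edgeR adjusted p = 0.000153). Both calls were made under all 14 alternatives tried, among them leaving out either spheroid sample. Hepatocyte markers were at 10300 and 11400 TPM in spheroids, with no gene of the 8 called by edgeR. Erythroid precursor markers were at 344 to 356 TPM in hepatocytes and at 20.6 and 14.4 in spheroids, with 3 of 4 tested genes lower, and Afmid, on the strand opposite Tk1, was lower as well, at 43.7 against 229 TPM. Their part in the result was not tested. The mitotic markers were low in both: Mki67 had 6 counts over the spheroids and 22 over the hepatocytes and was not tested, and Top2a was at 1.94 and 0.536 TPM (log2 fold change 0.19 ± 0.56, edgeR adjusted p = 0.826). Ccnd1 was at 15.5 and 8.81 TPM (log2 fold change -1.73 ± 0.67, edgeR adjusted p = 0.0954) and Pcna at 30.7 and 21.1 (0.45 ± 0.26, edgeR adjusted p = 0.247).

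The p53 targets, a list that does not hold Cdkn1a, were higher in 9 of 17 genes in spheroids and lower in 2, with a median of 1.05 on the log2 scale. Over all genes tested 8.13% were higher and 9.11% lower, and the calls of the other lists below are to be read against these shares. Eda2r, Plk2 and Zmat3 rose by 3.52, 2.09 and 2.03, and Phlda3, with 43 counts over the spheroids and 2 over the hepatocytes, had a ratio of 25.3 (counting interval 6.60 to 216). Mdm2, the gene of the p53 ligase, rose by 1.05 and Aen by 1.36, while Gadd45a and Plk3 fell by 1.49 and 1.48. Of the other lists, Orc2 and Fen1 among replication genes were higher (1.33 and 1.05), Spc24 among mitosis genes was lower (-3.26), as was Cenpm with 4 counts over the spheroids and 46 over the hepatocytes, Cdkn1b, which encodes p27, was higher (1.34) and E2f8 was lower (-4.84).

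**Figure D4:**
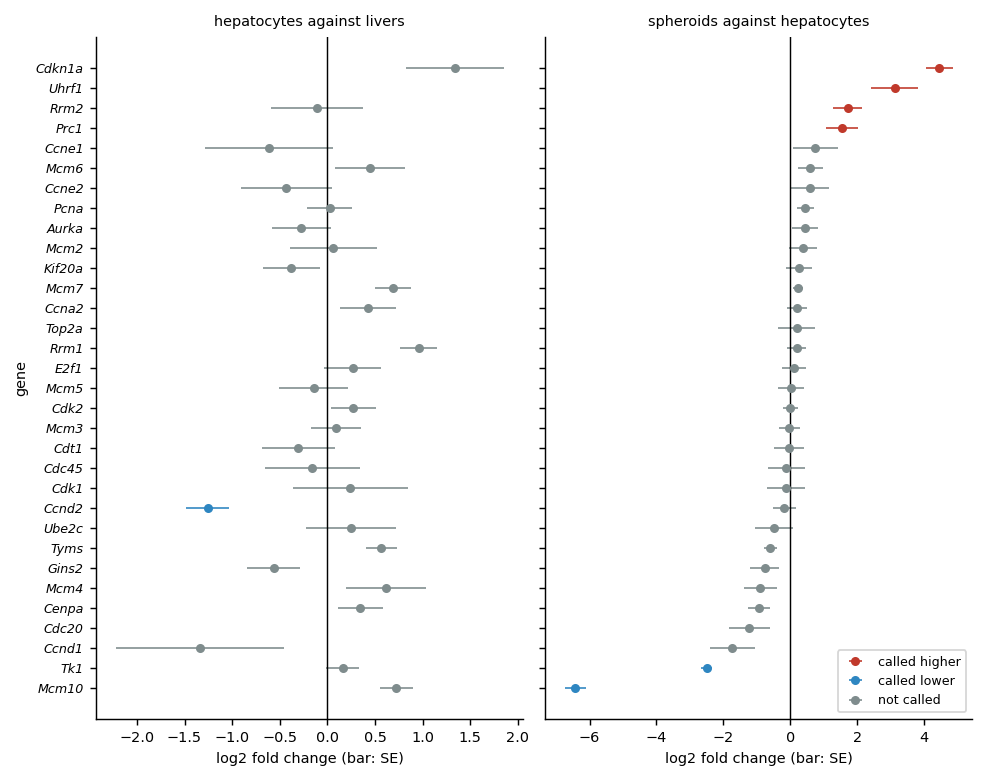
Log2 fold change of the 32 genes tested in spheroids against hepatocytes (right) and, for those also tested, in hepatocytes against livers (left); bars are standard errors, and the axes differ in range. Cdkn1a at 4.45 and Mcm10 at -6.42 are the ends of the right panel, and Ccnd2 is the only call of the left.

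The last comparison sets explants at 2 months post-tx against the spheroids of the kind that was transplanted. All 50 members were tested, and 13 were higher in explants (26%, against 30.4% of all 17059 genes) and 4 lower (8%, against 15.5%), so the share of higher calls was not above the background. With library size alone it was 20 higher and 2 lower, beside 6684 and 1415 of all 17059 genes. The median of all genes moved from 0.25 to 0.68 on the log2 scale. Cdkn1a, at 22 to 41 TPM in explants, fell from spheroid levels by 4.35 on the log2 scale (SE 0.23, edgeR adjusted p = 1.57e-06), and Rrm2 by 2.82 (SE 0.41, edgeR adjusted p = 0.000397). E2f1 and Ccne1 were also lower (log2 fold change -1.87 ± 0.69 and -1.35 ± 0.50, edgeR adjusted p = 0.0392 and 0.0398), though in TPM both overlapped and both calls were lost with library size alone and without explant 1, explant 2, explant 5 or spheroid sample 1. Hepatocyte markers fell in this comparison too, in 8 of 8 genes with a median of -1.83. The part of iris RNA in the falls of these 4 members was not tested. Mcm10 was at 0.920 to 5.59 TPM in explants and 1.26 and 1.38 in spheroids (log2 fold change 0.76 ± 0.66, edgeR adjusted p = 0.334), in each case far under the livers.

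Among the members higher in explants, Mki67 was at 2.00 to 4.98 TPM in explants and 0.453 and 0 in spheroids (log2 fold change 3.11 ± 0.83, edgeR adjusted p = 0.00964). Cdc20 changed by 2.35 ± 0.79 (edgeR adjusted p = 0.0265) and Ccnd1 by 1.84 ± 0.36 (edgeR adjusted p = 0.00195). The call of Cdc20 was lost without either spheroid sample. No spheroid sample reached the explants for these genes, and Top2a was not called (log2 fold change 1.70 ± 0.79, edgeR adjusted p = 0.0859). Cenpe, with 1 count over the spheroids and a ratio of 60.1 (counting interval 10.7 to 2380), Ccnd2, changed by 4.60 ± 0.26 (edgeR adjusted p = 2.44e-06), and Mcm4, changed by 2.38 ± 0.25 (edgeR adjusted p = 6.04e-05), overlapped between irises and explants in TPM. The smallest change among the higher calls was that of Mcm2, at 1.08 ± 0.17 (edgeR adjusted p = 0.000688). Mcm2, Cdk2 and Gins2, all higher than in spheroids, likewise overlapped between irises and explants in TPM. Gins2 shares 67.3% of its exon bases with Gse1 on the opposite strand, which was at 6.36 TPM in explants and 2.29 in spheroids. The part of Gse1 reads in the Gins2 counts was not tested. Pcna, at 30.7 and 21.1 TPM in spheroids, had a log2 fold change of -0.02 ± 0.15 (edgeR adjusted p = 0.903).

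The p53 targets were lower in explants than in spheroids in 14 of 17 genes and higher in none by edgeR, DESeq2 or limma-voom, with none higher at an unadjusted p under 0.05. Their median was -1.28 on the log2 scale, beside -1.83 for the 8 hepatocyte markers, all of them lower. Over all genes 15.5% were lower, and the part of iris RNA in these falls was not tested. Eda2r, Trp53inp1 and Plk3 fell by 4.02, 3.44 and 3.02 on the log2 scale, and Gadd45a, Fas and Ccng1 by 1.12, 1.15 and 1.17. Of the other mitosis genes 10 of 58 tested were higher and 2 lower, shares under the 30.4% and 15.5% over all genes: Spag5 rose by 4.88, Cit, with 6 counts over the spheroids, had a ratio of 35.3 (interval 16.2 to 96.3), Espl1 had no count in spheroids and was at least 4.17-fold higher against a floor of 3 counts over the group, and Ccnf and Cks2 fell by 3.37 and 1.68. Of 43 other replication genes 5 were higher and 2 lower, also under those shares, with Pole2 and Cdc7 at 2.38 and 2.29 and Dut at 1.5, and Gmnn fell by 1.94. Cdkn1c and Rbl1, with 5 and 3 counts over the spheroids, had ratios of 18.5 (interval 7.86 to 57.1) and 11.8 (interval 3.98 to 57.6), and Cdkn2d and Cdkn2c were higher by 1.86 and 1.78. Ccnd3 was higher (1.43), and Myc and E2f3 fell by 2.95 and 1.02. Of the genes higher here, Spag5, Cit, Espl1, Pole2, Cdc7, Dut, Cdkn1c, Rbl1, Cdkn2d, Cdkn2c and Ccnd3 were not called between explants and irises, with log2 fold changes of -0.52 to 0.67, and cannot be told apart from iris RNA.

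**Figure D5:**
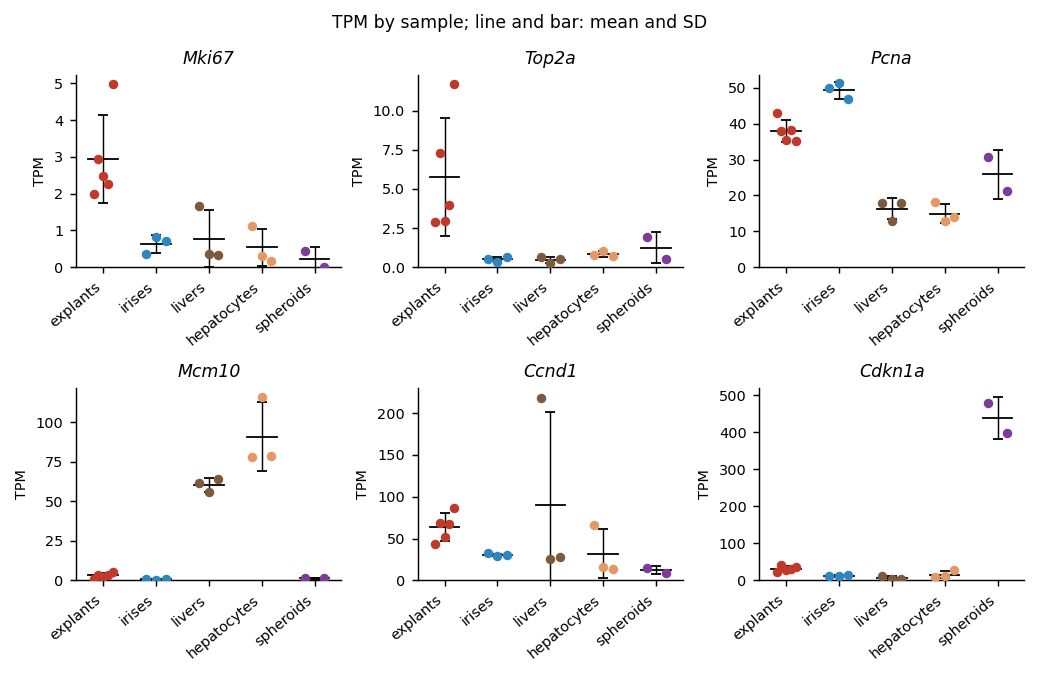
TPM of Mki67, Top2a, Pcna, Mcm10, Ccnd1 and Cdkn1a in each sample (points), with the mean and SD of each group as line and bar. Axes start at 0 and cut off bars that would run below it, as for Ccnd1 in livers (90.6 ± 111) and Mki67 in spheroids (0.226 ± 0.320). Mki67 and Top2a are highest in explants, Pcna in irises, Mcm10 in livers and hepatocytes, and Cdkn1a in spheroids, while Ccnd1 is highest in liver 1 at 218 TPM.

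Read across the 5 groups, each of these genes had its own order of levels. Mki67 was at 2.93 ± 1.20 TPM in explants, 0.779 ± 0.763 in livers, 0.636 ± 0.247 in irises, 0.535 ± 0.504 in hepatocytes and 0.226 ± 0.320 in spheroids, and only the explants did not overlap with their neighbour in that order. For Top2a the order was explants (5.77 ± 3.77 TPM), spheroids (1.24 ± 0.993), hepatocytes (0.844 ± 0.189), irises (0.521 ± 0.159) and livers (0.455 ± 0.198), where spheroids overlapped with hepatocytes and irises with livers. For Pcna, irises (49.4 ± 2.36) lay above explants (37.96 ± 3.09), spheroids (25.9 ± 6.79), livers (16.3 ± 2.90) and hepatocytes (14.95 ± 2.75), and only the last pair overlapped. For Mcm10, hepatocytes (90.9 ± 21.8) lay above livers (60.5 ± 4.25), and explants (3.26 ± 1.72), spheroids (1.32 ± 0.0906) and irises (0.715 ± 0.267) lay far below, explants and spheroids overlapping. For Ccnd1 the order was livers (90.6 ± 111), explants (63.6 ± 16.6), hepatocytes (31.8 ± 29.4), irises (30.6 ± 1.57) and spheroids (12.1 ± 4.70), and only the spheroids did not overlap with their neighbour. For Cdkn1a, spheroids (438 ± 57.4) stood above explants (31.8 ± 7.26), hepatocytes (16.01 ± 9.70), irises (13.001 ± 2.46) and livers (7.02 ± 3.69), with overlap of hepatocytes with explants and with irises. Values are means ± SD with n = 5 explants, 3 irises, 3 livers, 3 hepatocyte samples and 2 spheroid samples. The 5 comparisons share samples: explants entered 3 of them and livers, hepatocytes and spheroids 2 each.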

How the data were processed

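Per the labels, the file headers and the study's methods, the authors aligned reads with TopHat2 to mm10 and removed duplicates by molecular identifier. They counted reads over exons with featureCounts v1.4.6-p5, ignoring strand and counting a read for every gene it overlapped. The deposited counts of 3 technical libraries were summed per sample, which equalled the authors' collapsed counts in 100% of cells. Deposited TPM values were used for levels. The deposited iris-corrected signal was described only. Spike-in rows were left out.

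Each comparison was fitted on counts across all genes with edgeR 4.0.16 (quasi-likelihood, TMM, filterByExpr) in R 4.3.3. Genes were called at a p under 0.05 after Benjamini-Hochberg adjustment where the log2 fold change also exceeded 1 in size. Fits were tested on simulated data. Alternatives were DESeq2 1.42.0, limma-voom 3.58.1, other scalings and filters, a replicate block and leaving out each sample. Counting intervals are exact at 95% and, like the floor of 3 counts, cover counting error only. The study describes its replicates as biological, but the labels do not tie each sample to an animal, and p-values measure the spread between these samples.

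Members and lists were chosen with earlier results of these data known. All 50 members were accounted for. Mki67, Top2a, Pcna, Mcm10, Ccnd1 and Cdkn1a were described throughout, and up to 5 called members with the largest and 5 with the smallest log2 fold change were named per comparison, with up to 3 of each from every further list. Other members named with values were chosen after their values were seen. The values of 1 gene of the further lists are not reported here.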

Additional observations from a re-analysis of the deposited data

Results flagged for a closer look

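Only the explants, with 5 samples, were large enough a group to look for a sample far from the others. Of the 50 members, 1 was marked in this way. Mcm5, a subunit of the MCM helicase, was at 30.3 TPM in explant 6, the next highest explant was at 19.1 and the lowest at 14.6, and the gap was 0.712 of the whole range against a limit of 0.71 for 5 samples. Chance marks about 1 in 20 such groups. Explant 6 was also the highest explant for 35 of the 50 members, and its macrophage, lymphocyte and hepatocyte markers were the highest of the 5 explants. The part of these in the level of Mcm5 was not tested.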

How the results depend on the processing

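The number of members called higher in explants than in irises was 19 and became 4 with limma-voom and 4 with at least 10 counts in every sample, where 26 members were left. Over all genes, 541 of 16764 were higher with limma-voom and 613 of 14453 with the count minimum. Against livers, the 23 higher and 5 lower became 30 and 2 with library size alone, 11 and 2 with at least 10 counts in every sample, and 12 and 3 with the replicate block. Over all genes these were 7094 and 1715 of 16506, 2282 and 2080 of 11393, and 3555 and 2903 of 16506. For hepatocytes against livers, limma-voom gave 0 lower, no filter gave 1 higher and 2 lower, 1 fit of all 5 groups gave 2 higher, no fold change limit gave 1 higher, and leaving out both samples numbered 1, chosen after seeing the data, gave 2 higher. Over all genes, limma-voom gave 11 of 12236 lower, no filter 191 higher and 1014 lower of 25664, and the 1 fit 217 of 17064 higher. No fold change limit gave 96 of 12236 higher, and leaving out both samples numbered 1 gave 167 of 12092. For spheroids against hepatocytes, at least 10 counts in every sample gave 2 higher, beside 668 of all 10281 genes. For explants against spheroids, library size alone gave 20 higher and 2 lower, and at least 10 counts in every sample gave 2 lower. Over all genes it was 6684 and 1415 of 17059 with library size alone, and 1469 of 11184 lower with the count minimum. The cause was not tested, except that the count minimum left fewer members.

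Leaving out each sample in turn gave, for explants against irises, 2 to 24 higher and 0 lower, against livers 17 to 25 higher and 2 to 5 lower, and against spheroids 9 to 15 higher and 2 to 4 lower. It gave 0 higher and 0 to 1 lower for hepatocytes against livers, and 1 to 3 higher and 2 lower for spheroids against hepatocytes. With a sample left out, 554 to 1199 of all genes were higher in explants than in irises. The counts of members are thus to be read against shares that move too. Spheroids over irises in summed level went from 1.02 to 0.679 with mean CPM and to 0.625 without Ccnd1, Ccnd2, Cdkn1a and Mcm10.

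Whether same-numbered samples share a donor is not known, since the labels do not name donors. Hepatocytes and livers were the only compared pair of groups with 3 shared numbers. The correlation of their deviations was -0.043 to 0.105 for same-numbered samples and -0.123 to 0.103 for the others. With 3 samples per group, these values cannot decide whether donors were shared. Sample 1 was the highest liver for 36 members and the highest hepatocyte sample for 30, Ccnd1 and Mki67 among both. Samples 2 and 3 were the highest for 4 and 10 members in livers and for 11 and 9 in hepatocytes. With the replicate block, explants against irises gave 16 higher, hepatocytes against livers 1 lower, spheroids against hepatocytes 3 higher and 3 lower, and explants against spheroids 13 higher and 3 lower. Over all genes it was 821 of 16764 higher, 346 of 12236 lower, 892 and 1093 of 12247, and 5028 and 2647 of 17059. Of the fold changes of named members, 84 lost and 3 gained a call with a sample left out, 42 lost and 13 gained one under the other alternatives, and none changed direction with a call.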
